A study of Homo sapiens with 9 samples.

Results

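The aldehyde dehydrogenases described here are 10 genes, ALDH1A1, ALDH1A3, ALDH1B1, ALDH2, ALDH3A1, ALDH3A2, ALDH3B1, ALDH7A1, ALDH9A1 and ALDH16A1, found by their symbols among the 58735 genes of the deposited count files. The RNA came from MDA-MB-231, an established line of triple-negative breast cancer, and was sequenced in 9 libraries. Vehicle cells (3 libraries) were treated with DMSO. Erastin-R cells (3 libraries) were those that survived rising amounts of erastin, which blocks cystine uptake through system xc-, and RSL3-R cells (3 libraries) were those that survived rising amounts of RSL3, which inhibits the lipid peroxide reductase GPX4. Both drugs induce ferroptosis, an iron-dependent cell death driven by peroxidation of membrane lipids, and the sequencing was done to look for genes that accompany resistance to it. All 9 libraries came from the 1 cell line, the survivors are what remained of a treated population, and the labels do not say whether the libraries of a group came from separate cultures. The p values therefore measure the spread between these libraries, which may be technical. In bulk RNA, fewer cells that express a gene cannot be told apart from less of its RNA per cell.

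Aldehyde dehydrogenases oxidize aldehydes to carboxylic acids with NAD or NADP as the electron acceptor, through a cysteine in the active site. Peroxidized lipids break down to reactive aldehydes such as malondialdehyde and hydroxynonenal, which bind proteins and DNA, and several members clear them. ALDH2 and ALDH1B1 are mitochondrial and oxidize acetaldehyde and lipid-derived aldehydes. ALDH3A1, ALDH3A2 and ALDH3B1 act on medium- and long-chain aldehydes, and ALDH3A2 is the fatty aldehyde dehydrogenase of the endoplasmic reticulum. ALDH1A1 and ALDH1A3 make retinoic acid from retinal, and high activity of this kind is widely used to mark stem-like breast cancer cells. ALDH7A1 acts in lysine breakdown, and ALDH9A1 in the synthesis of carnitine and in polyamine breakdown. ALDH16A1 is a larger protein whose role is less settled.

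The coding bases around the catalytic cysteine show how far 8 of the members differ at the site that they share. In the translated ALDH16A1 transcript the sequence pattern used to find this cysteine had 0 matches, so no stretch is shown for it. Each line gives 39 bases, 5′ to 3′ on the coding strand, from the GENCODE 29 transcripts (GRCh38), with the cysteine codon in capitals.
ALDH2: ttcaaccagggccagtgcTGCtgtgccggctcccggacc
ALDH1B1: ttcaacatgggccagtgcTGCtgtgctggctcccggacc
ALDH1A1: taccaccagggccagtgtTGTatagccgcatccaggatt
ALDH1A3: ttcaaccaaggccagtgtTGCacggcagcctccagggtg
ALDH3A1: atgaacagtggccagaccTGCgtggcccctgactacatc
ALDH3A2: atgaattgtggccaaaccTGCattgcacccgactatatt
ALDH3B1: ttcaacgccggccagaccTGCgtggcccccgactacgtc
ALDH9A1: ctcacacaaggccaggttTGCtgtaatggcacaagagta
ALDH2 and ALDH1B1 share 36 of the 39 bases, ALDH3A1 and ALDH3B1 share 32, and the least alike pair, ALDH3A1 and ALDH9A1, shares 12. All of these are exonic coding bases. The ALDH2 stretch lies at chr12:111792636-111792674 on the plus strand and that of ALDH1B1 at chr9:38396685-38396723 on the plus strand, and the ALDH9A1 stretch on the minus strand crosses an intron, within chr1:165669427-165679456. Of the 50-base words of the ALDH1B1 transcript, 0.53% occurred in a transcript of another gene, LPP, and not of ALDH2. For ALDH2 the value was 9.79%, mostly with the overlapping locus AC002996.1, which had 0 to 1 counts in a library. For ALDH7A1 it was 7.12%, with the pseudogene ALDH7A1P1. For ALDH16A1 it was 11.1%, mostly with the overlapping locus AC010619.1, which had 0 counts in every library. ALDH1A3 stood apart, with 36.5% of its words in other transcripts, and 27.5% of its exon length lies opposite the antisense gene AC015712.2. This antisense gene had 4 to 21 counts in a library, and whether the counting used strand is not given in the sources used here, so reads from the pair cannot be told apart and ALDH1A3 is the least certain of the tested members.

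The libraries held 15405102 to 17273464 counted reads. At these depths 3 counts equal 0.175 to 0.193 CPM (the count per 1e+06 reads of library size, scaled by the TMM method), which was taken as the detection floor. On the third principal component (6.71% of the variance), erastin-R library 1 lay at -35.7 and the other erastin-R libraries at 14.4 and 13.0. Some erastin-R results are also given without library 1, and all others include it. Markers of the line (VIM, CD44, AXL, CAV1, TGFBI and KRT18) summed to between 3240 and 3543 CPM in every library, the largest part from VIM. Of these 6, edgeR called 5 for the survivors of erastin and 4 for those of RSL3, both against vehicle. Beside them, 54.0% and 48.7% of all tested genes were called in these comparisons. CAV1 was at -1.14 and KRT18 at -1.12 on the log2 scale in erastin-R cells. Of 5 luminal markers the hormone receptor genes ESR1 and PGR had at most 12 and 2 counts, FOXA1 had 13 to 38 and GATA3 54 to 117 counts, and ERBB2 had 927 to 1598 counts, so the luminal sum was 95.0 to 105 CPM in vehicle, 84.6 to 98.2 in erastin-R and 64.9 to 70.7 in RSL3-R libraries. Of 4 markers of other cell types, ADIPOQ had at most 1 count and ALB at most 6. The endothelial marker PECAM1 had 154 to 177 counts in vehicle, 20 to 36 in erastin-R and 199 to 222 in RSL3-R libraries, and the leukocyte marker PTPRC had 4 to 11, 3 to 11 and 19 to 24. Summed CPM of these 4 markers was 9.87 to 11.2 in vehicle, 1.59 to 2.80 in erastin-R and 13.2 to 15.7 in RSL3-R libraries, and the part of this in the results was not tested.

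To compare levels between genes, the deposited FPKM values (fragments per kilobase of exon, scaled to the library size) were used. In vehicle cells ALDH9A1 was the most abundant member at 21.8 ± 1.12 FPKM (SD, n = 3), followed by ALDH1B1 at 16.0 ± 0.635, ALDH3A2 at 11.8 ± 0.372 and ALDH3B1 at 10.4 ± 0.302 FPKM. Below them were ALDH16A1 at 8.81 ± 0.358, ALDH7A1 at 6.31 ± 0.291 and ALDH2 at 4.95 ± 0.355 FPKM. ALDH1A3 was far lower at 0.579 ± 0.0854 FPKM, ALDH3A1 lower still at 0.0722 ± 0.0248, and ALDH1A1 was at 0 in all vehicle libraries. The ranges of neighbours in this order did not overlap in vehicle cells. In erastin-R cells ALDH2 moved up to 11.1 ± 0.146 FPKM, a range that overlapped that of ALDH3A2 at 11.2 ± 0.0488 FPKM. ALDH3B1 (14.8 ± 1.88 FPKM) and ALDH1B1 (14.4 ± 2.02 FPKM) also overlapped there, as did ALDH16A1 (6.71 ± 1.86 FPKM) and ALDH7A1 (5.26 ± 0.277 FPKM). In RSL3-R cells ALDH9A1 stood further above the rest, at 25.7 ± 0.781 FPKM, and ALDH1B1 and ALDH3B1 overlapped at 11.1 ± 0.617 and 11.1 ± 0.818 FPKM. FPKM divides by all exons of a gene, which for ALDH7A1 sum to 17970 bases against 4964 in its principal transcript. Per kilobase of the principal transcript, an alternative chosen after seeing the data, the order changed. In vehicle cells ALDH7A1 moved from rank 6 to rank 3 of the 10 (23.1 CPM per kilobase), ALDH3B1 from rank 4 to 2 (25.1) and ALDH1B1 from rank 2 to 5 (16.7), while ALDH9A1 stayed first (27.0) and ALDH2 stayed at rank 7 (5.08 CPM per kilobase). In erastin-R cells ALDH3B1 (35.7 CPM per kilobase) then stood above ALDH9A1 (26.7).

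Summed over the members, FPKM was 80.7 ± 0.940 in vehicle cells, 85.4 ± 4.75 after erastin and 73.2 ± 0.491 after RSL3 (SD, n = 3). The makeup shifted within these sums. ALDH2 made up 6.14% ± 0.495 of the summed FPKM in vehicle cells, 13.0% ± 0.792 in the survivors of erastin and 9.60% ± 0.333 in those of RSL3. ALDH9A1 made up 27.0% ± 1.08 in vehicle cells, 25.2% ± 1.94 in erastin survivors and 35.1% ± 1.17 in RSL3 survivors. ALDH16A1 went the other way, from 10.9% ± 0.355 in vehicle cells to 7.80% ± 1.86 after erastin and 6.10% ± 0.799 after RSL3. The shares are given as a description, with no test.

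**Figure D1:**
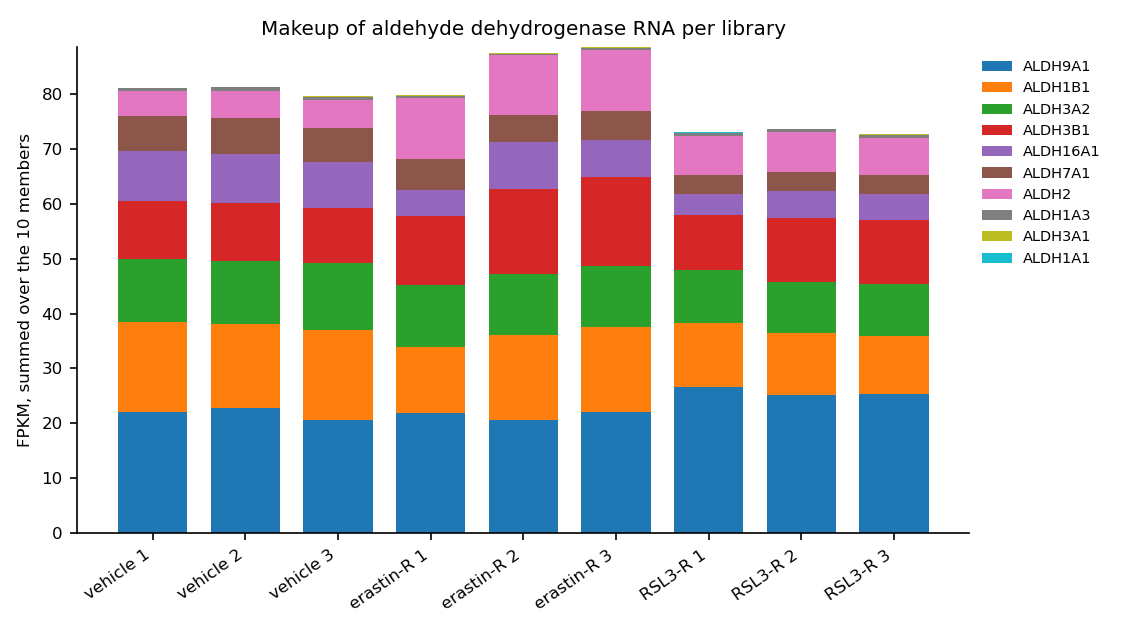
Stacked bars of FPKM (fragments per kilobase, scaled to library size) for the 10 aldehyde dehydrogenases in each of the 9 libraries, summed from 0, with colours for genes in the order of their vehicle level. The ALDH2 segment is thickest in the erastin-R libraries, at 12.5% to 13.9% of the sum, and the RSL3-R bars are the shortest, at 72.8 to 73.7 FPKM.

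Changes between conditions were tested with edgeR's quasi-likelihood test, with p values adjusted over 16188 genes. A gene is said to have risen or fallen where the adjusted p was under 0.05, and to be differentially expressed where its absolute log2 fold change was also at least 1. Of the 10 members, 8 passed the filter on low counts, and ALDH1A1 and ALDH3A1 did not. In erastin-R against vehicle cells, 2 of the 8 tested members rose (ALDH2 and ALDH3B1), where 27.1% of all tested genes rose, and 3 fell (ALDH1A3, ALDH7A1 and ALDH16A1), where 26.8% of all tested genes fell. These 5 of 8 stand beside 54.0% of all genes changed in either direction, and the 1 differentially expressed member, ALDH2, beside 13.4% of all genes. In RSL3-R against vehicle cells, 2 members rose (ALDH2 and ALDH9A1; background 23.8%) and 4 fell (ALDH1B1, ALDH3A2, ALDH7A1 and ALDH16A1; background 24.9%). These 6 of 8 stand beside 48.7% of all genes, and 0 members were differentially expressed, beside 10.1% of all genes. The changed shares, 62.5% and 75% of the tested members, rest on 8 genes. The tested members had a median log2 fold change of -0.11 after erastin and of -0.24 after RSL3, against -0.0042 and 0.0052 over all tested genes. Both comparisons share the vehicle libraries.

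**Figure D2:**
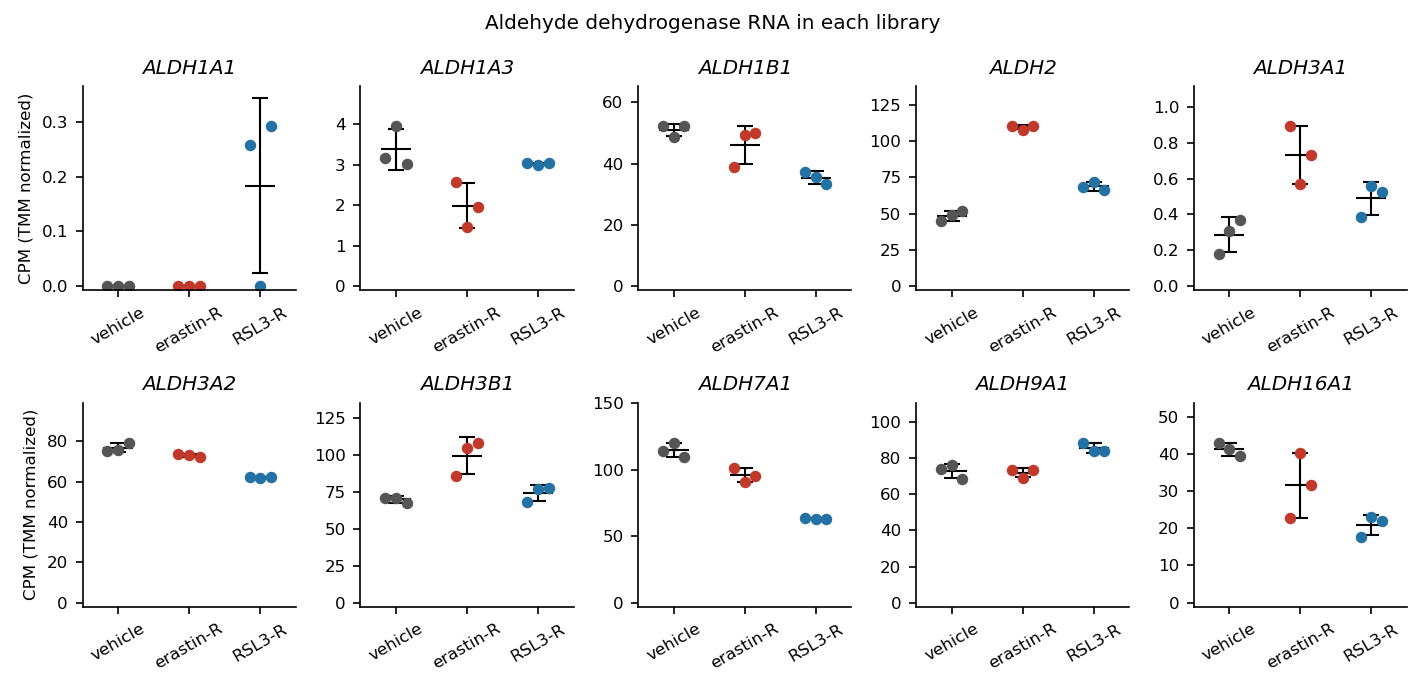
CPM (counts scaled to library size, TMM normalized, linear axes that differ between panels) of each aldehyde dehydrogenase in vehicle, erastin-R and RSL3-R libraries, with points for libraries and bars for the mean ± SD of 3. ALDH2 separates all 3 conditions, with 45.0 to 51.8 CPM in vehicle, 108 to 110 in erastin-R and 66.1 to 72.0 in RSL3-R libraries, and ALDH16A1 in erastin-R cells has the widest relative spread of the tested members above 20 CPM.

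ALDH2 (ENSG00000111275, chr12:111766887-111817529, plus strand) showed the largest rise of the tested members in erastin-R cells. Its level was 45.0, 49.2 and 51.8 CPM in the vehicle libraries, 110, 108 and 110 CPM in the erastin-R libraries and 68.4, 72.0 and 66.1 CPM in the RSL3-R libraries. Every erastin-R library lay above every RSL3-R library, and every RSL3-R library above every vehicle library. The rise in erastin-R cells was 2.25-fold (log2 1.17, SE 0.07, adjusted p = 1.36e-08, edgeR's quasi-likelihood test) and that in RSL3-R cells 1.42-fold (log2 0.50, SE 0.07, adjusted p = 3.93e-05, edgeR). Without erastin-R library 1, the rise in erastin-R cells was 1.16 on the log2 scale. ALDH1B1 (ENSG00000137124, chr9:38392664-38398661, plus strand), whose catalytic stretch is printed above beside that of ALDH2, did not follow it. ALDH1B1 had 52.2, 48.8 and 52.2 CPM in the vehicle libraries, 38.8, 49.4 and 49.9 CPM in the erastin-R libraries and 37.3, 35.7 and 33.3 CPM in the RSL3-R libraries. Erastin-R library 1 was low and the other erastin-R libraries fell among those of the vehicle, whereas all RSL3-R libraries lay below both other groups. The fall in RSL3-R cells was to 0.693 times the vehicle level (log2 -0.53, SE 0.10, adjusted p = 0.000394, edgeR). The erastin-R difference was -0.15 on the log2 scale (SE 0.09, adjusted p = 0.190, edgeR), and -0.04 without erastin-R library 1.

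Among the enzymes of longer-chain aldehydes, ALDH3B1 and ALDH3A2 differed in which cells they changed. ALDH3B1 (ENSG00000006534, chr11:68008578-68029282, plus strand) acts on aldehydes from lipid peroxidation at membranes. Its level was 71.1, 71.0 and 67.3 CPM in the vehicle libraries, 85.5, 105 and 108 CPM in the erastin-R libraries and 68.1, 77.1 and 77.8 CPM in the RSL3-R libraries. All erastin-R libraries were above all others, and the vehicle and RSL3-R libraries overlapped. ALDH3B1 rose 1.42-fold in erastin-R cells (log2 0.51, SE 0.09, adjusted p = 0.000232, edgeR), and by 0.61 on the log2 scale without erastin-R library 1. Its RSL3-R difference was 0.09 on the log2 scale (SE 0.09, adjusted p = 0.422, edgeR). ALDH3A2 (ENSG00000072210, chr17:19648136-19677598, plus strand) had 75.3, 75.8 and 79.5 CPM in the vehicle libraries, 73.8, 73.2 and 72.5 CPM in the erastin-R libraries and 62.2, 61.7 and 62.2 CPM in the RSL3-R libraries. The RSL3-R libraries were the lowest and lay within 1 CPM of each other, and the vehicle and erastin-R libraries were close but did not overlap. ALDH3A2 fell in RSL3-R cells to 0.808 times the vehicle level (log2 -0.31, SE 0.06, adjusted p = 0.000650, edgeR), and the erastin-R difference was -0.07 on the log2 scale (SE 0.06, adjusted p = 0.322, edgeR).

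ALDH7A1 and ALDH9A1, which serve the breakdown of lysine and the synthesis of carnitine, moved in opposite directions in RSL3-R cells. ALDH7A1 (ENSG00000164904, chr5:126531200-126595418, minus strand) had 114, 120 and 109 CPM in the vehicle libraries, 102, 91.0 and 95.1 CPM in the erastin-R libraries and 63.9, 63.0 and 62.9 CPM in the RSL3-R libraries. The 3 conditions formed 3 steps with no overlap, and the RSL3-R libraries were nearly level with each other. ALDH7A1 fell to 0.552 times the vehicle level in RSL3-R cells (log2 -0.86, SE 0.06, adjusted p = 1.28e-07, edgeR) and to 0.837 times in erastin-R cells (log2 -0.26, SE 0.06, adjusted p = 0.00351, edgeR). Without erastin-R library 1 the latter was -0.30 on the log2 scale. ALDH9A1 (ENSG00000143149, chr1:165662216-165698863, minus strand), the member with the highest FPKM in every condition, had 73.9, 76.2 and 68.6 CPM in the vehicle libraries, 73.6, 69.1 and 73.3 CPM in the erastin-R libraries and 88.7, 84.0 and 84.3 CPM in the RSL3-R libraries. The vehicle and erastin-R libraries overlapped, and all RSL3-R libraries lay above them. The rise in RSL3-R cells was 1.18-fold (log2 0.23, SE 0.06, adjusted p = 0.00844, edgeR), and the erastin-R difference was -0.02 (log2, SE 0.06, adjusted p = 0.838, edgeR).

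ALDH16A1 (ENSG00000161618, chr19:49453169-49471048, plus strand) showed the largest fall of the tested members in RSL3-R cells. Its level was 43.1, 41.3 and 39.6 CPM in the vehicle libraries, 22.9, 40.3 and 31.5 CPM in the erastin-R libraries and 17.7, 23.1 and 21.9 CPM in the RSL3-R libraries. The RSL3-R libraries lay well below the vehicle libraries, while the erastin-R libraries spread from the vehicle range down to the RSL3-R range. In RSL3-R cells ALDH16A1 fell to 0.506 times the vehicle level (log2 -0.98, SE 0.16, adjusted p = 0.000165, edgeR), just short of the limit for differential expression. In erastin-R cells it fell to 0.762 times the vehicle level (log2 -0.39, SE 0.15, adjusted p = 0.0452, edgeR), a call that rested on single libraries. Without erastin-R library 1 the log2 fold change was -0.20 (adjusted p = 0.0691, edgeR), and without erastin-R library 2 it was -0.60 (adjusted p = 0.00235, edgeR). The adjusted p was also over 0.05 without erastin-R library 3 (0.0859), without vehicle library 1 (0.121), 2 (0.0923) or 3 (0.0738), and without RSL3-R library 2 (0.0569) or 3 (0.0631), each by edgeR. With only the vehicle and erastin-R libraries in the fit it was 0.0702 (edgeR). Of its exon length, 3.27% lies opposite PIH1D1, which had 1323 to 1883 counts in a library. A further locus on the same strand, AC010619.1, overlaps 7.26% of it and had 0 counts.

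The members that make retinoic acid were scarce. ALDH1A3 (ENSG00000184254, chr15:100877714-100916626, plus strand) had 3.16, 3.95 and 3.02 CPM in the vehicle libraries, 2.56, 1.46 and 1.95 CPM in the erastin-R libraries and 3.03, 2.98 and 3.04 CPM in the RSL3-R libraries, from 23 to 64 counts each. Erastin-R libraries were the lowest without overlap, and vehicle and RSL3-R libraries overlapped. ALDH1A3 fell to 0.592 times the vehicle level in erastin-R cells (log2 -0.76, SE 0.23, adjusted p = 0.0114, edgeR). The adjusted p (edgeR) was 0.0584 without vehicle library 2 and 0.0514 without erastin-R library 2. The log2 fold change without erastin-R library 1 was -0.98. In RSL3-R cells its difference was -0.16 on the log2 scale (SE 0.21, adjusted p = 0.559, edgeR). ALDH1A1 (ENSG00000165092, chr9:72900662-73080442, minus strand) had 0 counts in all vehicle and erastin-R libraries, which allows up to 0.191 CPM, and 4, 0 and 5 counts in the RSL3-R libraries. It could not be tested at this depth, and no fold is given. ALDH3A1 (ENSG00000108602, chr17:19737984-19748943, minus strand), known for its abundance in the cornea, had 3, 5 and 6 counts in the vehicle libraries, 15, 9 and 12 in the erastin-R libraries and 6, 9 and 9 in the RSL3-R libraries. Erastin-R libraries 1 and 3 had the highest counts and the other equalled the highest RSL3-R counts, and in the fit without a filter on low counts the difference from vehicle did not pass (log2 1.33, SE 0.58, adjusted p = 0.0791, edgeR).

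**Figure D3:**
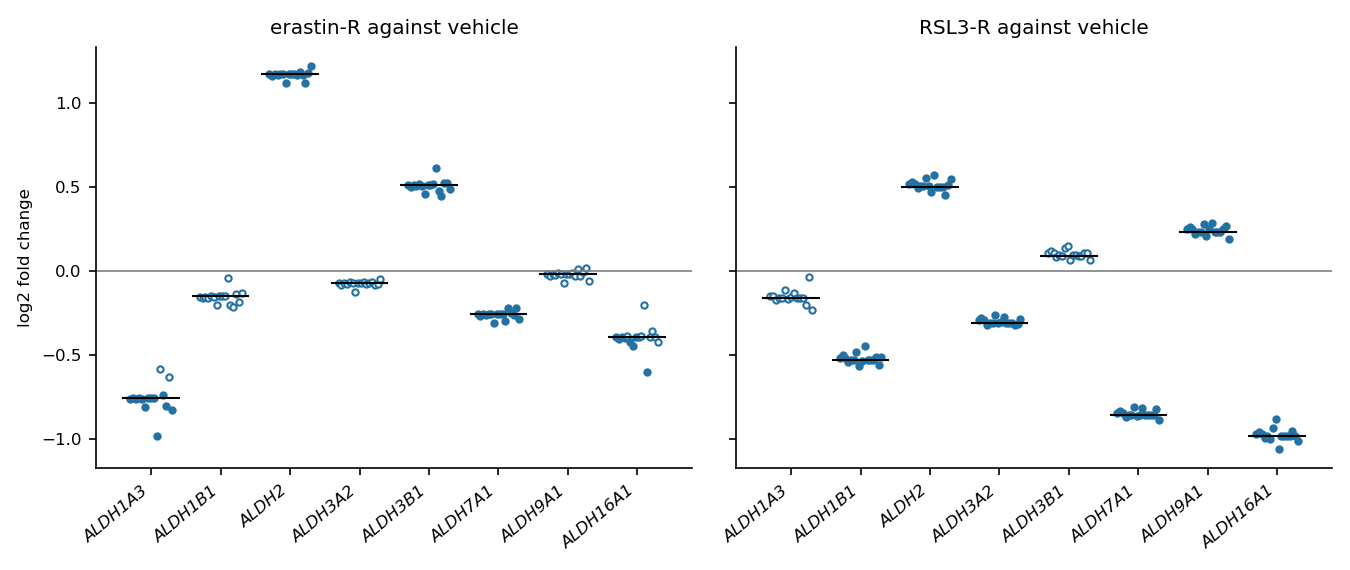
Log2 fold changes of the 8 tested aldehyde dehydrogenases against vehicle, with a black line for the value reported and points for each alternative setting, filled where the adjusted p was under 0.05 (open otherwise). ALDH2 stays between 1.12 and 1.22 in erastin-R cells and ALDH7A1 between -0.89 and -0.81 in RSL3-R cells, whereas ALDH16A1 in erastin-R cells runs from -0.60 to -0.20.

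The survivors of both drugs were also compared directly. Of the 8 tested members, 2 were higher in RSL3-R than in erastin-R cells (ALDH1A3 and ALDH9A1; background 22.3%) and 6 were lower (background 26.9%), beside 49.2% of all genes in either direction. Of the members, 0 reached an absolute log2 fold change of 1 in this comparison, beside 10.3% of all genes that were differentially expressed. The median log2 fold change of the tested members was -0.40, against -0.024 over all genes. ALDH2 was 0.629 times (log2 -0.67, SE 0.07, adjusted p = 2.94e-06, edgeR) and ALDH7A1 0.659 times its erastin-R level (log2 -0.60, SE 0.06, adjusted p = 5.50e-06, edgeR). ALDH16A1 was at -0.59 on the log2 scale (SE 0.16, adjusted p = 0.00745, edgeR), with overlapping libraries. It was at -0.78 without erastin-R library 1 and at -0.38 without erastin-R library 2. ALDH3B1 was at -0.42 (SE 0.09, adjusted p = 0.00127, edgeR) and ALDH1B1 at -0.38 (SE 0.10, adjusted p = 0.00475, edgeR). Without erastin-R library 1, ALDH3B1 was at -0.52 and ALDH1B1 at -0.49. ALDH3A2 was at -0.24 (SE 0.06, adjusted p = 0.00435, edgeR), and this call was lost with upper-quartile scaling (adjusted p = 0.0698, edgeR). ALDH9A1 was 1.19-fold higher (log2 0.25, SE 0.06, adjusted p = 0.00545, edgeR). ALDH1A3 was at 0.59 (SE 0.23, adjusted p = 0.0442, edgeR). This was lost without any 1 of the libraries other than erastin-R library 1, with the highest adjusted p, 0.165, without erastin-R library 2 and 0.0507 to 0.0971 without each of the others. With upper-quartile scaling 58.9% of the genes past the threshold were higher in RSL3-R cells, against 45.4% with the TMM scaling used here, and the median over all genes was 0.077 on the log2 scale.

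The rest of the human family, 9 genes, includes enzymes of amino acid, folate and proline metabolism. Of these, ALDH3B2 had 0 counts in every library and ALDH1A2 at most 10, and 7 were tested. In erastin-R cells 2 of the 7 rose and 1 fell, where 27.1% of all tested genes rose and 26.8% fell. ALDH18A1, which makes the precursor of proline, rose 1.51-fold (log2 0.59, SE 0.07, adjusted p = 5.06e-06, edgeR), and ALDH6A1, of valine breakdown, rose 1.41-fold (log2 0.50, SE 0.08, adjusted p = 0.000105, edgeR). ALDH4A1, of proline breakdown, fell to 0.655 times (log2 -0.61, SE 0.15, adjusted p = 0.00393, edgeR). In RSL3-R cells 2 rose and 4 fell, where 23.8% of all tested genes rose and 24.9% fell. ALDH4A1 fell further there, from 7.51, 7.60 and 7.03 CPM in the vehicle libraries to 2.26, 2.67 and 2.45 CPM in the RSL3-R libraries, with 4.11, 5.60 and 4.80 CPM in the erastin-R libraries between them (log2 -1.58, SE 0.17, adjusted p = 3.45e-06, edgeR). ALDH18A1 and ALDH6A1 fell in RSL3-R cells (log2 -0.32 and -0.34), and so did ALDH5A1, of GABA breakdown (log2 -0.62, adjusted p = 0.00650, edgeR). ALDH1L2, the mitochondrial formyltetrahydrofolate dehydrogenase, rose from 0.990 ± 0.486 CPM in vehicle cells to 3.47 ± 0.450 CPM in RSL3-R cells (SD, n = 3; log2 1.80, SE 0.32, adjusted p = 0.000373, edgeR).

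Its cytosolic relative ALDH1L1 rose in RSL3-R cells on 4 to 22 counts a library, with overlapping libraries (log2 1.17, SE 0.45, adjusted p = 0.0434, edgeR). The call for ALDH1L1 was lost without vehicle library 2 (adjusted p = 0.159, edgeR) or 3 (0.144), without RSL3-R library 1 (0.0880) or 2 (0.127), and with DESeq2 (0.0524), and the log2 fold change was 2.03 without vehicle library 1. In erastin-R cells neither ALDH1L1 nor ALDH8A1 passed, but each did without 1 vehicle library, ALDH1L1 without library 1 (log2 1.60, adjusted p = 0.0134, edgeR) and ALDH8A1 without library 3 (log2 1.35, adjusted p = 0.0378, edgeR). The median of the 7 genes was 0.50 (log2) after erastin and -0.32 after RSL3.

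**Figure D4:**
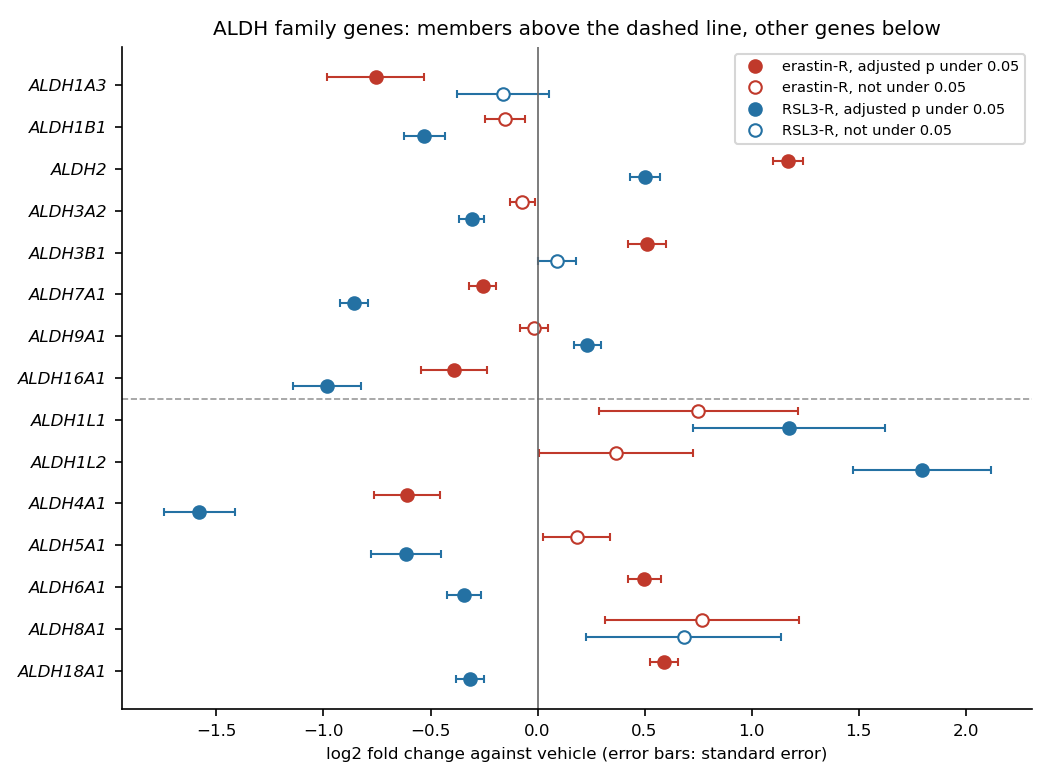
Log2 fold changes against vehicle (points, with standard errors as bars) of the 15 tested aldehyde dehydrogenase family genes in erastin-R (red) and RSL3-R (blue) cells, filled where the adjusted p was under 0.05, with the members above the dashed line and the other family genes below it. ALDH2 lies furthest to the right among the members at 1.17, and ALDH4A1 furthest to the left of all at -1.58.

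Other enzymes that clear lipid aldehydes, the aldo-keto and carbonyl reductases, prostaglandin reductases and glutathione transferases, were followed as a list of 18 genes, of which 17 were tested. In erastin-R cells 9 rose (all genes 27.1%), 2 fell (all genes 26.8%) and 6 did not pass, with a median log2 fold change of 0.33. Those with the largest rises were AKR1C2 (log2 1.20, SE 0.29), the aldose reductase AKR1B1 (log2 1.01, SE 0.10) and PTGR1 (log2 0.99, SE 0.08), which reduces the double bond of unsaturated aldehydes. The carbonyl reductases CBR3 (log2 -0.99, SE 0.16) and CBR1 (log2 -0.27, SE 0.09) fell. CBR1 (adjusted p = 0.0243, edgeR) was over 0.05 without vehicle library 1 (0.0837) or 3 (0.0534) and without erastin-R library 2 (0.0641) or 3 (0.0801). The same held without a filter on low counts (adjusted p = 0.0574, edgeR). In RSL3-R cells 7 rose (all genes 23.8%), 4 fell (all genes 24.9%) and 6 did not pass, with a median of 0.02. The number that rose was 4 without RSL3-R library 1, where 3256 of all 16188 genes rose, against 3850 with all libraries. AKR1C1 (log2 0.76, SE 0.17), AKR1C3 (log2 0.70, SE 0.09) and CBR4 (log2 0.64, SE 0.09) rose, and CBR3 (log2 -1.63, SE 0.17), AKR7A2 (log2 -0.82, SE 0.08) and GSTP1 (log2 -0.47, SE 0.06) fell. AKR1C1, AKR1C2 and AKR1C3 are close copies of each other. Only uniquely mapped reads were counted per the methods, so reads that match several of them would be left out. Between the survivors, 0 of the 17 were higher in RSL3-R than in erastin-R cells, 9 were lower and 8 did not pass, with a median of -0.26, where 22.3% of all genes were higher and 26.9% lower. Without erastin-R library 1, 1 was higher, where 4445 of all 16188 genes were higher, against 3615 with all libraries.

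The steps before and after the retinal dehydrogenases were a list of 19 genes of retinoic acid synthesis, binding and breakdown, of which 10 were tested. In erastin-R cells 3 rose and 4 fell (median log2 fold change -0.30), 7 of 10 beside 54.0% of all genes changed. The number that fell was 2 without vehicle library 1. In that fit 7747 of all 16188 genes changed in either direction, against 8735 with all libraries. RDH10, which makes retinal from retinol, rose 2.17-fold (log2 1.11, SE 0.15, adjusted p = 3.72e-05, edgeR), and the receptors RARG (log2 0.60, SE 0.10) and RXRB (log2 0.35, SE 0.07) rose. RXRA (log2 -0.51, SE 0.10), the retinal reductases RDH11 (log2 -0.37, SE 0.10) and DHRS3 (log2 -0.35, SE 0.12) fell, as did RARA (log2 -0.25, SE 0.08), which was named after its values were seen, and the DHRS3 call was lost without vehicle library 1 (adjusted p = 0.0873, edgeR) or erastin-R library 1 (adjusted p = 0.0535, edgeR). In RSL3-R cells 3 rose and 2 fell (median -0.03), 5 of 10 beside 48.7% of all genes. RDH10 (log2 0.63, SE 0.16), RARG (log2 0.43, SE 0.10) and RARA (log2 0.28, SE 0.08) rose. RXRA (log2 -0.38, SE 0.10) fell, with an adjusted p of 0.0508 (edgeR) without RSL3-R library 3. LRAT, which esterifies retinol, fell from a low level (log2 -1.05, SE 0.37, adjusted p = 0.0316, edgeR). Its adjusted p (edgeR) was 0.0964 and 0.0550 without vehicle library 1 and 2, just over 0.05 without vehicle library 3, and 0.0711 and 0.105 without RSL3-R library 1 and 2. The LRAT call was also lost without a filter on low counts (adjusted p = 0.0585, edgeR) and with DESeq2 (adjusted p = 0.0689). Between the survivors, 3 genes of this list were higher in RSL3-R cells and 2 lower (median 0.02), 5 of 10 beside 49.2% of all genes. The number lower was 1 without erastin-R library 2 or RSL3-R library 3. In these fits 6888 and 6581 of all 16188 genes differed in either direction, against 7969 with all libraries.

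Enzymes that supply or share the substrates of single members were a list of 18 genes, of which 13 were tested. Not tested were the alcohol dehydrogenase genes ADH1A, ADH1B and ADH1C, with at most 3, 1 and 4 counts in a library. The carnitine synthesis genes TMLHE, with 0 counts, and BBOX1, with at most 1, were not tested either. In erastin-R cells 6 rose and 2 fell (median log2 fold change 0.24), and in RSL3-R cells 4 rose and 3 fell (median 0.14). These are 61.5% and 53.8% of the 13, beside 54.0% and 48.7% of all genes. In RSL3-R cells the number that fell was 5 without erastin-R library 1. In that fit 9333 of all 16188 genes passed in either direction, against 7879 with all libraries. SAT1, which acetylates polyamines for breakdown and so lies upstream of the aminoaldehydes that ALDH9A1 takes, rose most, 3.39-fold in erastin-R (log2 1.76, SE 0.07, adjusted p = 4.64e-10, edgeR) and 2.67-fold in RSL3-R cells (log2 1.42, SE 0.07, adjusted p = 1.80e-09, edgeR). The spermine oxidase SMOX rose in RSL3-R cells (log2 0.39, SE 0.11) and in erastin-R cells (log2 0.80, SE 0.11, adjusted p = 2.88e-05, edgeR). Of the ethanol oxidizing enzymes that feed ALDH2, CYP2E1 rose from 1.75 CPM in vehicle cells (log2 1.41, SE 0.20 in erastin-R and log2 0.88, SE 0.21 in RSL3-R cells), and catalase, CAT, fell (log2 -0.48, SE 0.08 and log2 -0.30, SE 0.08). SPHK1, which makes the sphingosine phosphate whose cleavage gives the fatty aldehyde for ALDH3A2, rose in erastin-R cells (log2 0.95, SE 0.21). In the lysine pathway of ALDH7A1, AADAT fell in erastin-R (log2 -0.79, SE 0.18) and RSL3-R cells (log2 -0.60, SE 0.17, adjusted p = 0.0105, edgeR, and 0.0511 without RSL3-R library 1). GCDH fell in RSL3-R cells (log2 -0.56, SE 0.10) and was at 0.10 (log2, SE 0.10, adjusted p = 0.437, edgeR) in erastin-R cells. AASS, which catalyses the first steps of that pathway, rose in erastin-R cells (log2 0.65, SE 0.08, adjusted p = 1.43e-05, edgeR) and was at 0.03 in RSL3-R cells (log2, SE 0.08, adjusted p = 0.800, edgeR). AASS and the erastin-R values of SMOX and GCDH were chosen after the values were seen. Between the survivors, 1 gene of this list was higher in RSL3-R cells and 7 were lower (median -0.41), beside 22.3% and 26.9% of all genes. The number higher was 2 without erastin-R library 1 and 0 without erastin-R library 3 or RSL3-R library 2. Over all 16188 genes the number higher was 4445, 3061 and 3123 in these fits, against 3615 with all libraries.

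Over the 9 libraries, the protein-coding genes whose log2 CPM was most like that of ALDH2 were the helicase gene HELB (Pearson r = 0.996), the RNA polymerase III subunit gene POLR3D (r = 0.995) and the transcriptional corepressor gene CBFA2T2 (r = 0.994). These are a description over 9 libraries of 3 conditions, and 355 of the 12969 genes searched had r of at least 0.95.

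RefSeq promoter windows (GRCh38.p14, from 250 bases before to 50 after the start) were on hand for 7 of the 10 members, in 9 windows. ALDH2, ALDH3A1 and ALDH16A1 had no window, so the matches below say nothing of them. The antioxidant response core TGACNNNGC, searched on both strands, was in 0 of these 9 windows and in 13.3% of all 35116 windows, and TGATGCAA, a composite element of C/EBP and ATF factors, was in 0 of 9 and in 0.866% of all. The CCAAT box was in 5 of the 9 windows, each of another member, and in 34.6% of all windows. Shown are 40 bases around it, in capitals and on the strand of the gene, for the 3 members with this match that fell in RSL3-R cells.
ALDH7A1: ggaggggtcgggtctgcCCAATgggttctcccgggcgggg
ALDH1B1: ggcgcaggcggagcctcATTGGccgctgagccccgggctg
ALDH3A2: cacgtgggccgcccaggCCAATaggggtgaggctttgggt
They lie at chr5:126595260-126595299 on the minus strand, chr9:38392659-38392698 on the plus strand and chr17:19648704-19648743 on the plus strand. In ALDH1B1 the box reads on the opposite strand (ATTGG). The ALDH7A1 and ALDH3A2 stretches lie inside the gene spans given above. Another window of ALDH3A2, at chr17:19647886-19648185, did not hold the box. The box was also in the windows of ALDH1A3, which did not pass in RSL3-R cells, and of ALDH1A1, which was not tested. A match is a description of letters in the window and was not tested for use.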

How the data were processed

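RNA of 9 MDA-MB-231 libraries was analysed, 3 per condition, grouped by the treatment in the labels. The authors deposited counts per gene without normalization and FPKM values made from them. Per the methods, RNA was selected by oligo(dT) and only uniquely mapped exonic reads were counted. The submitters' processing notes name HISAT2 2.0.5 and featureCounts 1.5.0-p3. Gene coordinates equal those of GENCODE 29 (GRCh38) for all 10 members.

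Counts were fitted in R 4.3.3 with edgeR 4.0.16 (TMM, filterByExpr, quasi-likelihood test, 1 model of 9 libraries without covariates), with Benjamini-Hochberg adjustment over the 16188 genes tested. The fit was also run on simulated counts with 200 of the 16188 genes changed. This share is far smaller than the share called in the data, so the simulation does not test the fit under such wide change. Standard errors came from the log2 fold change and its F statistic. CPM is the count per 1e+06 of TMM effective library size. The biological coefficient of variation was 8.56%. Precision from counting alone is limited by the depth, 15405102 to 17273464 reads a library. DESeq2 1.42.0, another 2 scalings, no filter, an FPKM filter, only the compared conditions, a replicate block and each library left out were alternatives. Deviations of libraries with the same replicate number correlated at -0.00495 on average (-0.0904 to 0.0518 over 9 pairs). Those with unlike numbers correlated at 0.00256 (-0.0880 to 0.123 over 18 pairs). No pairing by number was seen, though so few libraries cannot show that there is none. Named are all family genes, up to 3 list genes each way with the largest log2 fold change past the threshold in a comparison with vehicle, and the 3 genes most like ALDH2. The members and lists were chosen with earlier results of these data known. The schedule of drug exposure was not used here.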

Additional observations from a re-analysis of the deposited data

Results flagged for a closer look

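Each of the following genes differed between the survivors of erastin and those of RSL3 in the direct test (edgeR's quasi-likelihood test), as did 49.2% of all tested genes. Values are log2 differences, RSL3-R minus erastin-R. Of the members, all 8 tested were in this set. ALDH2 was at -0.67, ALDH7A1 at -0.60, ALDH16A1 at -0.59, ALDH3B1 at -0.42, ALDH1B1 at -0.38 and ALDH3A2 at -0.24, whereas ALDH1A3 was at 0.59 and ALDH9A1 at 0.25. The call of ALDH1A3 (adjusted p = 0.0442, edgeR) was lost in 12 of 15 alternatives. Of the other family genes 5 of the 7 tested were in it, beside the same 49.2%. ALDH4A1 was at -0.97, ALDH18A1 at -0.91, ALDH6A1 at -0.84 and ALDH5A1 at -0.80, whereas ALDH1L2 was at 1.43. Among these, ALDH18A1 and ALDH6A1 rose after erastin and fell after RSL3.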

How the results depend on the processing

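Over the alternatives run, the log2 fold changes of the 8 tested members kept direction and side of the threshold in 356 of the settings, lost the call in 23, gained it in 0 and turned direction in 2. ALDH9A1 in erastin-R cells turned to 0.0151 without vehicle replicate 2 and to 0.0113 without erastin-R replicate 2, in a range from -0.0593 to 0.0151 with 1 library left out. Of the other genes, ALDH5A1 in erastin-R cells turned to -0.0179 without erastin-R replicate 1 (range -0.0179 to 0.333), and ALDH8A1 between the survivors turned to 0.0148 with upper-quartile scaling, 0.126 without erastin-R replicate 2 and 0.185 without RSL3-R replicate 3 (range -0.315 to 0.185). None of these 3 genes had passed the threshold in the comparison named. The calls lost were ALDH16A1 in erastin-R cells (8 alternatives), ALDH1A3 in erastin-R cells (2), and, between the survivors, ALDH1A3 (12) and ALDH3A2 (1). The cause was not tested.

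Leaving out 1 library, the number of members past the threshold in erastin-R cells ran from 3 (without vehicle replicate 2) to 5, against 5, and the number differentially expressed in RSL3-R cells from 0 to 1 (without vehicle replicate 3 or RSL3-R replicate 2), against 0. With the replicate block the latter was 1, since the fall of ALDH16A1 just passed 1 on the log2 scale, and the block otherwise changed the call of 1 member, ALDH1A3 between the survivors (adjusted p = 0.0622, edgeR). Over all 16188 genes tested in erastin-R against vehicle cells, 7675 passed without vehicle replicate 2, against 8735 with all libraries. In RSL3-R cells 1596 of all genes were differentially expressed without vehicle replicate 3 and 1575 without RSL3-R replicate 2, against 1635. Depth limits ALDH1A1 and ALDH3A1, which were not tested, and widens the error of ALDH1A3.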
